A study of Mus musculus with 14 samples.

Results

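The Iroquois homeobox genes Irx1 to Irx6 lie in a pair of clusters, Irx1/2/4 on chromosome 13 and Irx3/5/6 on chromosome 8, and this account describes the binding of PRDM16 around them in the embryonic mouse heart. PRDM16, a DNA-binding protein with zinc fingers and a PR domain, regulates transcription together with chromatin-modifying partners and is needed for ventricular development. A peak of PRDM16 ChIP-seq (chromatin immunoprecipitation followed by sequencing) was counted to an Iroquois gene when that gene was the nearest protein-coding gene to the peak's summit, measured to the gene body in GRCm38. This gave 35 of 17587 wild-type (WT) peaks, 22 in the Irx1/2/4 cluster and 13 in the Irx3/5/6 cluster. By gene there were 7 at Irx1, 4 at Irx2, 11 at Irx4, 9 at Irx3, 4 at Irx5 and 0 at Irx6.

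All tissue came from E13.5 embryos of the C57BL/6 strain. Ventricles with the atria removed gave 1 PRDM16 library from Prdm16 conditional knockout (Prdm16cKO) hearts and 2 from WT hearts, each a pool of 3 hearts. Isolated right ventricles (RV) and left ventricles (LV) of WT embryos gave 2 PRDM16 libraries each, every one a pool of 10 to 12 ventricles, and each ChIP library had an input. The driver of the deletion and the cells that keep Prdm16 in the knockout are not given in the sources used here. No RNA was measured, so the tissue labels were not checked against marker transcripts. Peak lists are 1 per genotype. The RV libraries, named A and B for this purpose, held 281797 and 267808 reads within peaks, against 330443 (A) and 184244 (B) in the LV libraries. These letters carry no replicate number of the labels.

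Iroquois proteins are transcription factors with a homeodomain of the TALE class and a conserved Iro box. The genes of each cluster share distant regulatory sequence in the wide gene-poor stretches between them. In the heart, Irx4 is a marker of the ventricular chambers, Irx3 is needed for fast conduction through the ventricular conduction system, and Irx5 shapes the repolarisation gradient across the mouse ventricular wall. Irx1 and Irx2 are expressed in the ventricular septum of mouse embryos, while little is known of Irx6 in the heart.

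Promoters of 3 of the 6 genes are listed in the RefSeq table of GRCm38.p6, and their 250 bases before the transcription start are shown because they separate an Iroquois start site that lay under a PRDM16 peak (Irx3) from those that did not (Irx2 and Irx4). Capitals mark matches to the HAND1 sequence NNTCTG or the E-box CANNTG on either strand. The windows are chr8:91801655-91801904 on the minus strand, chr13:72628570-72628819 on the plus strand and chr13:73260247-73260496 on the plus strand.
Irx3: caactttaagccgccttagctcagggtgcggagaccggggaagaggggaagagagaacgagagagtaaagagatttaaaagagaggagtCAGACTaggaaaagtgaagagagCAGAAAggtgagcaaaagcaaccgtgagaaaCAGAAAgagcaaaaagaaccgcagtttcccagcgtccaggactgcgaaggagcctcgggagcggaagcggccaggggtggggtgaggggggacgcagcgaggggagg
Irx2: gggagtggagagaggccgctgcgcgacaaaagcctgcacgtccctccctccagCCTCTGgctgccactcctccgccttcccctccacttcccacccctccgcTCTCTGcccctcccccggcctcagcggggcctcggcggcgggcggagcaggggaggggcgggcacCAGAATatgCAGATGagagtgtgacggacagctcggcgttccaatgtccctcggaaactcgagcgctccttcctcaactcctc
Irx4: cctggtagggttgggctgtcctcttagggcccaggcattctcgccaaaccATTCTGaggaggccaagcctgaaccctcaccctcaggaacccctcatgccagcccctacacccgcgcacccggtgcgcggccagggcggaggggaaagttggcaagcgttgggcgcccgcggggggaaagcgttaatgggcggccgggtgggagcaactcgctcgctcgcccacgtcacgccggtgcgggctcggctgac
All 250 bases of the Irx3 window lay within a PRDM16 peak, whose summit was 201 bp before the start site. The Irx2 and Irx4 windows had 0 bases under a peak, and the nearest summits lay 141259 bp and 3361 bp from those start sites. The Irx3 window was less rich in G and C, at 56.0%, than those of Irx2 (68.4%) and Irx4 (68.8%). All 3 windows lay above the median of 52.4% over all promoters of this length. It held 3 matches to NNTCTG and 0 E-boxes. The Irx2 window held 4 matches to NNTCTG, of which 1 coincided with its only E-box, and the Irx4 window held 1 match and 0 E-boxes. Of 32851 RefSeq promoters cut to the same length, 93.2% held NNTCTG and 66.2% an E-box. None of the 3 windows held the IRX site ACANNTGT (6.31% of promoters), the T-box sequence AGGTGTG (5.1%), the GATA sequence AGATAA (9.99%), the NKX2-5 sequence TNAAGTG (10.1%) or the TEAD sequence GGAATG (12.6%). The letters of the windows are therefore a description of the sequence beside each start and not of bound sites.

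Where PRDM16 lay in the clusters differed from gene to gene. At least 1 peak was assigned to 5 of 6 Iroquois genes, where 32.6% of 21896 protein-coding genes had one. Since the presence of a peak is what chose the regions, these counts are a description. Peaks of the Iroquois genes were distant: 23 of 35 summits (65.7%) lay more than 50 kb from the gene, against 15.6% of all WT peaks. Inside their nearest gene or within 1000 bp of it lay 6 of 35, against 64.8% of all WT peaks. The genes stand in wide intergenic stretches, so that distant peaks are counted to them for want of a nearer gene. Per length of sequence nearest to each gene, Irx4 had 31.6 peaks per Mb and Irx3 had 26.0, against 6.79 for all WT peaks over the spans of their chromosomes. Irx5 had 9.13, Irx1 had 7.83, Irx2 had 6.13 and Irx6 had 0.0. As many peaks as at Irx4 or more were found at 143 genes (0.653% of all), and as many as at Irx3 or more at 247 genes (1.13%).

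**Figure D1:**
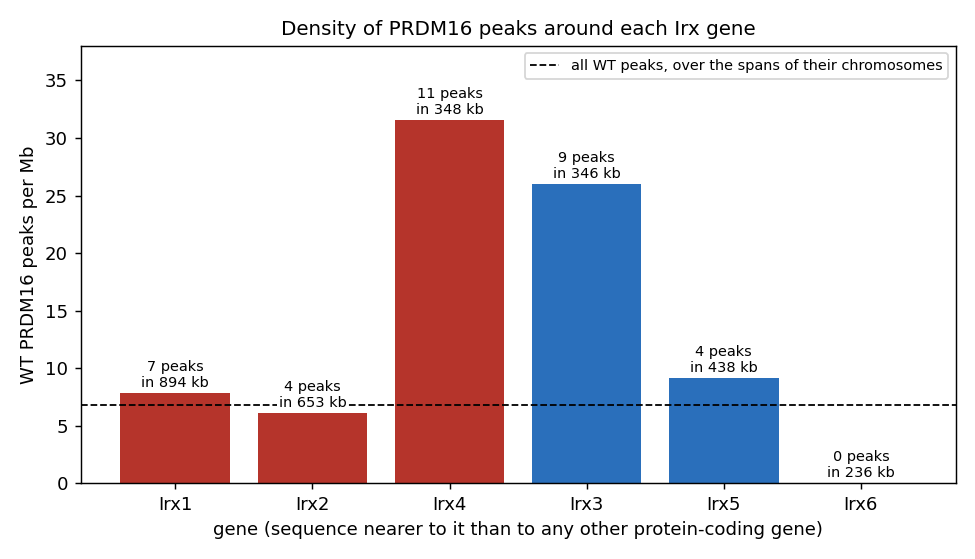
Bars give WT PRDM16 peaks per Mb of the sequence nearer to each Iroquois gene than to any other protein-coding gene, red for the Irx1/2/4 cluster and blue for the Irx3/5/6 cluster, with the number of peaks and the length above each bar and the density of all WT peaks (6.79 per Mb) as a dashed line. Irx4 and Irx3 stand above the others at 31.6 and 26.0 peaks per Mb, and Irx6 has 0 peaks.

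The authors' fold enrichment of ChIP over background had a median of 4.43 over the 35 peaks, against 4.0 over all WT peaks. Of the Iroquois peaks, 5 of 35 (14.3%) had a fold of at least 10, against 2.95% of all. These 5 peaks were spread over 4 genes, with 2 at Irx2 and 1 each at Irx1, Irx3 and Irx5, and 4 of the 5 were more than 50 kb from their gene. A fold of at least 5 was reached by 11 of 35 (31.4%), against 26.1% of all.

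In the Irx1/2/4 cluster the strongest binding lay between Irx1 and Irx2. Irx1 spans chr13:71958232-71963723 and had its nearest peak 60146 bp away, so that the gene body and its surroundings were free of peaks. That peak, at chr13:72023422-72024157, had a fold of 9.31. The strongest Irx1 peak lay at chr13:72133895-72134801, 170632 bp from the gene, with a fold of 10.2 (percentile 97.2 of all WT peaks). The other 5 Irx1 peaks had folds of 3.83 to 4.79, and 1 of the 7 lay on the side of Irx1 away from Irx2.

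Irx2, which spans chr13:72624430-72634196, had no peak closer than 136869 bp. All of its 4 peaks lay on the side of Irx1. The strongest peak of all Iroquois genes was among them, at chr13:72370933-72372201, 253295 bp from Irx2, with a fold of 15.2 over a width of 1269 bp (percentile 99.4). The next, at chr13:72419355-72420035 and 204784 bp from Irx2, had a fold of 12.1 (percentile 98.5), and the remaining pair had 4.01 and 3.56. Between the last of them and the first peak of Irx4 lay 544 kb without a WT peak, and this stretch held the Irx2 gene itself.

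Irx4 had the most peaks of the 6 genes. It spans chr13:73259589-73269622, and 3 of its 11 peaks lay inside, at chr13:73263558-73264145 (fold 5.33), chr13:73265603-73265801 (4.38) and chr13:73267584-73267839 (3.93). A further peak lay 7907 bp away (6.36) and another 20833 bp away (3.96), both on the side of Ndufs6. The strongest, at chr13:73170252-73170676 and 89118 bp from the gene, had a fold of 7.59, and 0 of the 11 reached a fold of 10. The remaining 5 were grouped between 178302 and 228121 bp from the gene, with folds of 3.05 to 5.73.

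Just beyond the last Irx4 peak lay a far stronger one that the nearest-gene rule gives to Ndufs6, which encodes a subunit of mitochondrial complex I. This peak, at chr13:73298462-73299864, had a fold of 28.7. It was 20947 bp from Ndufs6 and 29307 bp from Irx4, so that its assignment rests on a difference of less than 10 kb. Counted by a window that reaches 500 kb beyond the outer genes, the cluster held 30 peaks, of which 8 had Ndufs6, Mrpl36 or Slc12a7 as nearest gene. The genes between Mrpl36 and Slc12a7 (Lpcat1, Slc6a3, Clptm1l, Tert, Slc6a18 and Slc6a19) lay in a stretch of 325 kb without a peak.

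In the Irx3/5/6 cluster PRDM16 peaks lay at the Irx3 start, at the lower-coordinate end of Irx5 and between these genes, with 0 around Irx6. Irx3, which spans chr8:91798511-91801654, had 1 peak inside the gene, at chr8:91801098-91801420 (fold 2.88), and 1 over the promoter printed above, at chr8:91801619-91802045 (fold 3.23). Both were among the weaker peaks of the whole list, at percentiles 8.01 and 18.4. The strongest Irx3 peak lay at chr8:91987826-91988338, 186460 bp from the gene, with a fold of 11.8 (percentile 98.3). A wide peak of 1148 bp, at chr8:91966911-91968058, lay 165905 bp from Irx3 and had a fold of 6.24. The other 5 Irx3 peaks had folds of 3.47 to 4.94, and 8 of the 9 lay outside the gene on the side of Irx5.

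Irx5 spans chr8:92357796-92361456. One of its 4 peaks, at chr8:92357581-92357790, had its summit 56 bp from the gene's lower coordinate, with a fold of 3.41 (percentile 26.0). The strongest, at chr8:92323427-92324347 and 33863 bp away, had a fold of 11.6 (percentile 98.2). The remaining pair lay 45389 and 229965 bp from Irx5, with folds of 3.98 and 4.43, and all 4 peaks lay on the side of Irx3. From the peak beside the lower end of Irx5 no further WT peak followed for 860 kb. The stretch held Irx5 itself, Irx6 (chr8:92674289-92680956), Mmp2, Lpcat2, Capns2, Slc6a2 and the Ces1 genes, and the nearest summit to Irx6 was 316549 bp away. The list holds peaks above the authors' threshold, and weaker signal at Irx6 was not analysed here.

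**Figure D2:**
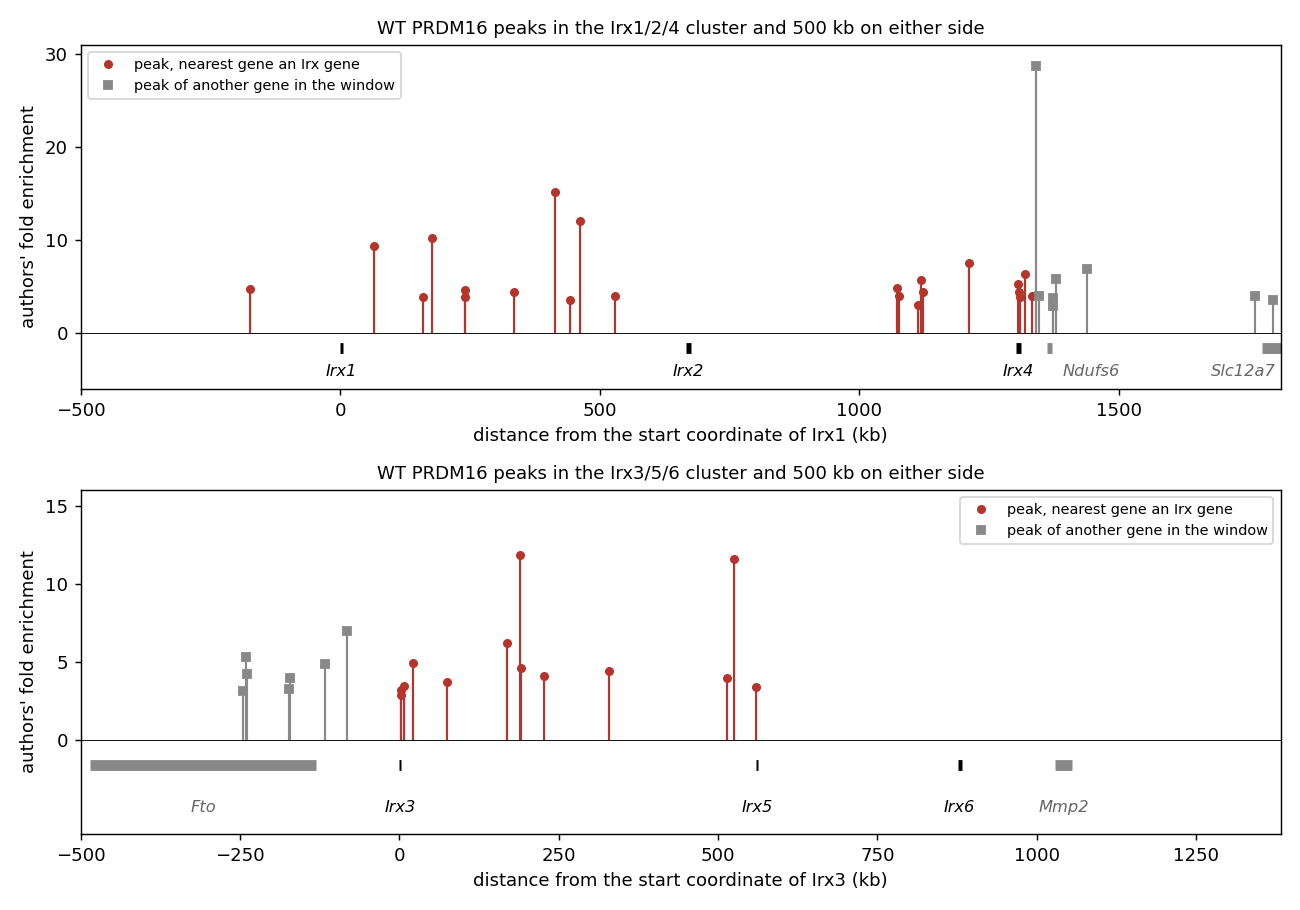
Each stem is a WT PRDM16 peak in the Irx1/2/4 cluster (upper panel) or the Irx3/5/6 cluster (lower panel), with the distance of its summit from the start coordinate of Irx1 or Irx3 in kb on the horizontal axis and the authors' fold enrichment on the vertical axis. Red circles are peaks whose nearest gene is an Iroquois gene, grey squares are those of other genes, and bars below the axis are genes. In the upper panel the peaks of fold 15.2, 12.1 and 10.2 stand between Irx1 and Irx2, the 28.7-fold peak stands beside Irx4, and the right part of the lower panel around Irx6 holds 0 peaks.

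The knockout library shows where the PRDM16 antibody gave peaks in hearts with Prdm16 deleted. None of the 35 Iroquois peaks shared a single base with a knockout peak (0 of 35, exact 95% upper limit 10.0%), where 1.12% of all 17587 WT peaks did so. Of all WT peaks more than 50 kb from their gene 3.6% did so, against 0 of 23 Iroquois peaks (upper limit 14.8%). Within 50 kb the share was 0.66%, against 0 of 12. Of 330 knockout peaks, 0 had an Iroquois gene as nearest gene and 0 lay in either 500-kb window. The shortest distance from an Iroquois summit to a knockout peak was 1238251 bp, at the last Irx4 peak. With 1 knockout library, no values per library and unknown depths, this difference was not tested. A share near 1.12% cannot be told apart from 0 with 35 peaks, nor one near 3.6% with 23 peaks.

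RV against LV asks whether PRDM16 binds the same regions differently in the ventricles. The authors' deposited table gives a mean of normalised reads for each ventricle at every WT peak, from which whole reads per library were worked out. These were tested with limma on log2 of normalised reads plus 1, fitted over all 17587 regions with n = 2 pools per ventricle. At an adjusted p under 0.05, 0 of 35 Iroquois regions passed, where 0.0284% of all regions did (5 regions, all higher in LV). By the adjusted p in the authors' deposited table, 0 of 35 passed, as did 0.0% of all regions. At an unadjusted p under 0.05 there were 4 Iroquois regions with limma, all higher in LV, where 6.32% of all regions reached it, and 1 in the authors' deposited table, where 0.483% did. An absolute limma log2 of at least 1 was found at 4 Iroquois regions, 1 each at Irx1, Irx2, Irx4 and Irx5 and all higher in LV, where 9.5% of all regions had one. Those at Irx1, Irx2 and Irx4 were also among the 4 with an unadjusted limma p under 0.05. The shares of 6.32%, 0.483% and 9.5% count either direction. The mean reads per library ran from 2.0 to 64.5 over the Iroquois regions, with a median of 10.0, against a median of 8.25 over all regions.

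The region with the clearest separation was the 12.1-fold peak at 204784 bp from Irx2. It had 20 and 14 reads in RV libraries A and B, against 54 and 27 reads in LV libraries A and B. In normalised reads these were 17.3 and 13.505 in RV, against 40.2 and 39.6 in LV. Both RV values were less than 0.5 times either LV value, and the replicates of LV lay close together. The limma log2 of RV over LV was -1.33 (SE 0.334, unadjusted p = 0.00039), with a limma adjusted p of 0.274, which missed the threshold. In the authors' deposited table the means were 15.9 in RV and 40.4 in LV, with a log2 of -1.34 and an unadjusted p of 0.0153. The strongest Irx2 peak, about 50 kb further from the gene, had 51.1 and 40.5 normalised reads in RV, against 52.8 and 48.3 in LV. Its log2 was -0.15 (SE 0.315) and 0.015 without RV library B, and the ranges of the ventricles overlapped. The difference between the log2 values of these Irx2 peaks was not tested. The peak of fold 4.01 had 13.9 and 8.68 in RV, against 14.9 and 8.79 in LV, and the weakest, of fold 3.56, had 3.46 and 7.72 in RV, against 3.72 and 5.86 in LV.

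At Irx1 the strongest peak had 38.1 and 34.7 normalised reads in RV, against 52.1 and 38.1 in LV (limma log2 -0.29, SE 0.319). This log2 was -0.065 without LV library A and -0.51 without LV library B. The peak closest to the gene, 60146 bp away, had 13.0 and 22.2 in RV, against 18.6 and 17.6 in LV, and the LV values lay between those of RV. Of the 7 Irx1 regions, 5 had the higher value in LV. One weak Irx1 region, 234695 bp from the gene, had 3 and 1 reads in RV, against 12 and 3 reads in LV, and a log2 of -1.46 (SE 0.697, limma adjusted p = 0.773). At this depth a single read moves such a value. A region 154920 bp from Irx1 had the opposite order, with 6 and 6 reads in RV against 5 and 1 in LV (log2 0.93, SE 0.671).

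Of 11 Irx4 regions, 7 had the higher value in RV and 4 in LV, with a median log2 of 0.055. Inside the gene the first region had 20.8 and 14.5 normalised reads in RV, against 14.9 and 14.7 in LV, and a log2 of 0.22 (SE 0.372), which was -0.028 without RV library A. The second had 7.79 and 2.89 in RV, against 5.95 and 4.4 in LV (log2 -0.066, SE 0.609, but 0.042 in the authors' deposited table, 0.52 without RV library B and 0.12 without LV library A). The third had 6.93 and 11.6 in RV, against 3.72 and 5.86 in LV (log2 0.81, SE 0.535, unadjusted p = 0.139), the smallest limma p among the regions of the Irx1/2/4 cluster that were higher in RV. Its log2 was 0.48 without RV library B and 0.54 without LV library A. In the third, both RV values lay above both LV values, while the groups overlapped in the first and the second. The strongest Irx4 peak had 13.0 and 19.3 in RV, against 11.2 and 10.3 in LV (log2 0.53, SE 0.398, limma adjusted p = 0.877). There too both RV values lay above both LV values, and the log2 was 0.26 without RV library B and 0.79 without RV library A. One Irx4 region, 178302 bp away, had lower values in RV, with 9.53 and 4.82 normalised reads against 16.4 and 19.0 in LV (log2 -1.25, SE 0.431, limma adjusted p = 0.61). On the side of Ndufs6, the region 7907 bp away had 13.9 and 16.4 in RV, against 13.4 and 14.7 in LV, with overlapping groups. The other 5 Irx4 regions had log2 values between -0.30 and 0.47.

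Of 9 Irx3 regions, 7 had the higher value in LV and 2 in RV, with a median log2 of -0.36. At 5 of the 9, both RV libraries lay below both LV libraries, where 17.9% of all regions showed this order. Some of these 5 rest on few reads. The region 187790 bp from Irx3 had 2 and 3 reads in RV, against 4 and 2 in LV. The one 3785 bp away had 4 and 5 reads in RV, against 7 and 4 in LV. The strongest peak had 26.0 and 27.0 normalised reads in RV, against 32.8 and 42.5 in LV (log2 -0.48, SE 0.323, limma adjusted p = 0.847), and a log2 of -0.30 without LV library B. The region 18341 bp from Irx3 had 8.66 and 5.79 in RV, against 15.6 and 13.2 in LV (log2 -0.92, SE 0.437, limma adjusted p = 0.765). The wide region 165905 bp away, which held the most reads of the Irx3 regions, had 55.4 and 35.7 in RV, against 66.2 and 42.5 in LV (log2 -0.25, SE 0.332), and the groups overlapped. The region inside the gene had 6.06 and 4.82 in RV, against 6.7 and 8.79 in LV (log2 -0.44, SE 0.529, and -0.26 without LV library B). At the strongest peak, the region 18341 bp away and the one inside the gene both RV values lay below both LV values, but none of the differences passed the adjusted threshold.

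The sign at the Irx3 start and at the lower end of Irx5 turned when LV library B was left out. Over the Irx3 promoter there were 21 and 15 reads in RV, against 31 and 4 reads in LV, or 18.2 and 14.5 normalised reads in RV against 23.1 and 5.86 in LV. The log2 was 0.42 (SE 0.449) with all libraries, -0.48 without LV library B and 1.33 without LV library A. Beside Irx5 there were 8 and 13 reads in RV, against 16 and 3 in LV (6.93 and 12.5 normalised reads in RV, against 11.9 and 4.4 in LV). Its log2 was 0.31 (SE 0.506), -0.32 without LV library B and -0.074 without RV library B. LV library B was low at both. Over the 2882 WT peaks within 1 kb of a gene end the median log2 of LV library B over LV library A was -0.18, against -0.014 over the other 14705, and the part of this in the Iroquois values was not tested. The strongest Irx5 peak had 51.1 and 69.5 normalised reads in RV, against 65.5 and 57.1 in LV, and a log2 of -0.038 (SE 0.32), with overlapping groups and a sign that turned without RV library A (0.18) or LV library A (0.059). The Irx5 region 45389 bp away had 6 and 1 reads in RV, against 10 and 5 in LV (log2 -1.26, SE 0.653, limma adjusted p = 0.79). The one 229965 bp away had 5 and 6 reads in RV, against 2 and 7 in LV. Its log2 was 0.185 (SE 0.667) with limma but -0.197 in the authors' deposited table.

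**Figure D3:**
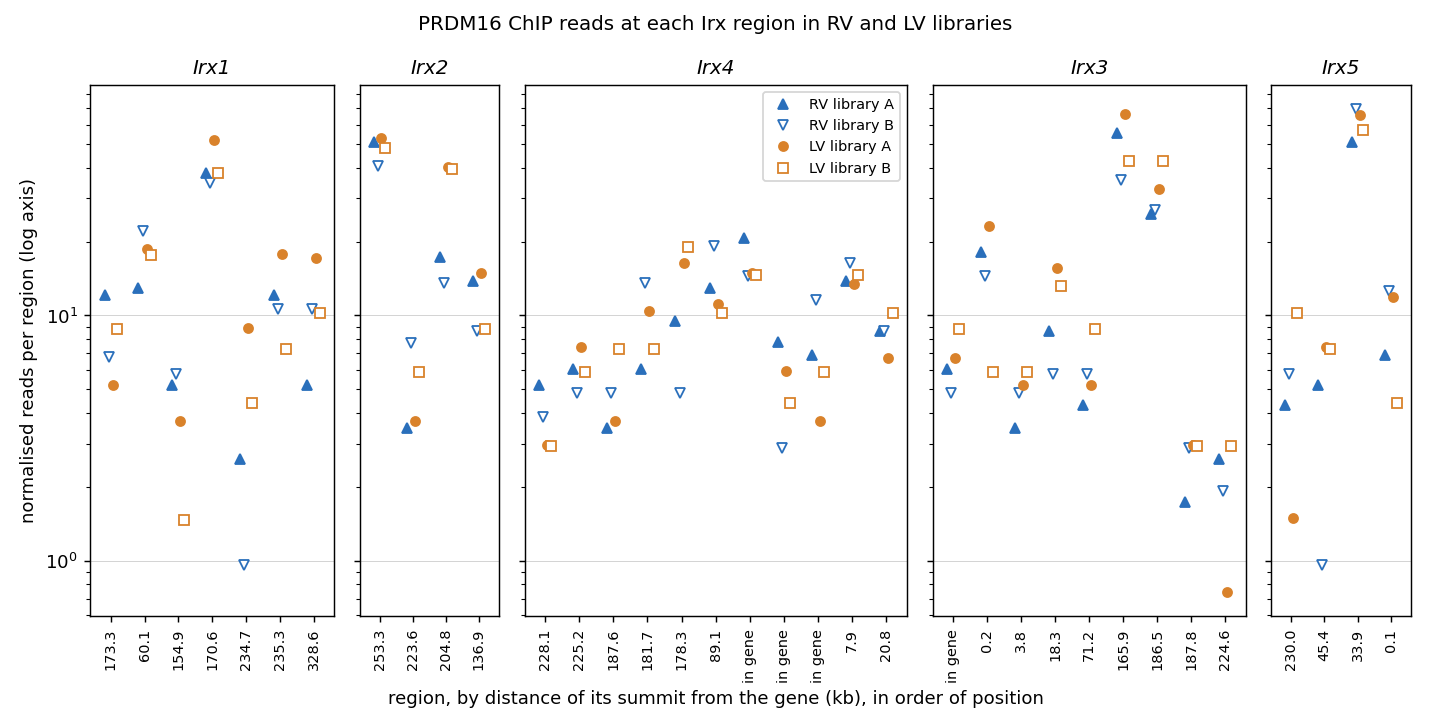
Points are normalised PRDM16 reads (log axis) at each of the 35 Iroquois regions, in order of position within each gene, with RV libraries as blue triangles and LV libraries as orange circles and squares; labels below give the distance of the summit from the gene in kb. At the Irx2 region 204784 bp from the gene the RV values of 17.3 and 13.505 lie below the LV values of 40.2 and 39.6, and over the Irx3 promoter LV library B (5.86) lies below the other libraries.

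By cluster, the Irx3/5/6 regions had a median log2 of -0.28 and the Irx1/2/4 regions one of -0.039, against 0.01 over all regions. The Irx3/5/6 median was -0.43 without LV library A and -0.17 without RV library A, and the Irx1/2/4 median was -0.15 without LV library B, -0.067 without RV library A, -0.003 without LV library A and 0.0 without RV library B. Higher values in LV were found at 9 of 13 Irx3/5/6 regions and 12 of 22 Irx1/2/4 regions, where 49.3% of all regions were higher in LV. By the authors' deposited log2 these were 10 of 13 and 11 of 22, against 50.2% of all. The Irx3/5/6 values were not shared by its genes: LV was higher with limma at 7 of 9 Irx3 regions (median log2 -0.36) and 2 of 4 Irx5 regions (median log2 0.074). Both RV libraries lay below both LV libraries at 6 of 13 Irx3/5/6 regions and 3 of 22 Irx1/2/4 regions, where 17.9% of all regions showed this order. Both RV libraries lay above both LV libraries at 0 of 13 and 4 of 22, where 17.6% of all regions did. The regions of a cluster are not replicates, and the difference between the clusters was not tested. Among the 6 Irx3/5/6 regions that averaged 8 reads or more, the median was -0.14 and 4 were higher in LV. Summed over the 13 Irx3/5/6 regions, normalised reads were 194 and 192 in RV, against 245 and 212 in LV. Over the 22 Irx1/2/4 regions they were 275 and 267 in RV, against 332 and 293 in LV. By gene the order of the sums was mixed: the Irx4 regions had 101 and 105 in RV, against 97 and 103 in LV, and the Irx5 regions 68 and 89 in RV, against 86 and 79 in LV. The Irx3 regions had 126 and 103 in RV, against 159 and 133 in LV, and the Irx1 regions 88 and 92 in RV, against 124 and 88 in LV. The Irx2 regions had 86 and 70 in RV, against 112 and 103 in LV, and the region 204784 bp from Irx2 makes up most of that gap. Over all WT peaks the sums were 244043 and 258338 in RV, against 245962 and 269943 in LV.

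**Figure D4:**
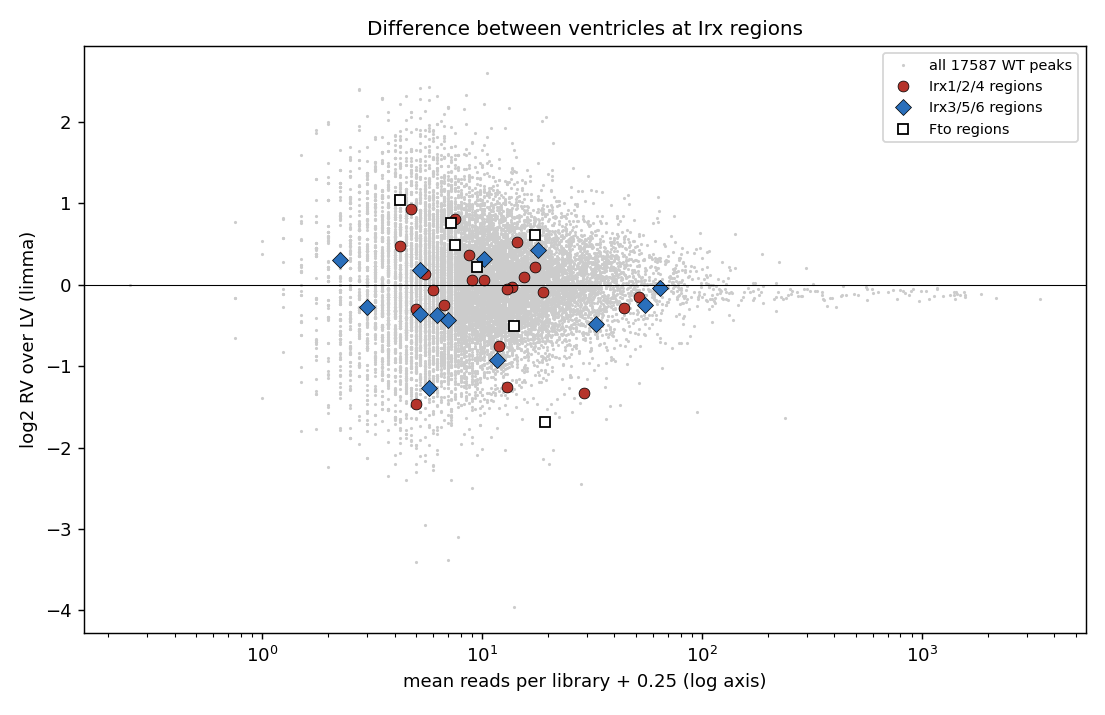
Each point is a region, with mean reads per library plus 0.25 on a log axis and the limma log2 of RV over LV on the vertical axis; grey points are all WT peaks, red circles Irx1/2/4 regions, blue diamonds Irx3/5/6 regions and open squares regions whose nearest gene is Fto. The Iroquois regions lie between -1.46 and 0.93 and within the cloud of all regions, with the Irx2 region at -1.33 near its lower edge.

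A list of 16 heart genes was drawn up as partners or targets of Iroquois factors, with earlier results of these data known. The relation of each gene to Iroquois factors was not tested here. All 16 had a WT peak, with 82 peaks in all, where 32.6% of genes had one. The highest folds were at Myh7, a ventricular myosin heavy chain (23.5), and Gja5, a gap junction protein of fast-conducting muscle that depends on Irx3 in mouse (13.7). Next came Tbx3, a T-box repressor present in the conduction system (13.46), and Hey2, a transcriptional repressor present in the compact layer (12.2). None of the 82 regions overlapped a knockout peak, where 1.12% of all WT peaks did, and shares this small cannot be told apart with 82 peaks. The strongest of the 9 Tbx5 peaks (fold 9.04) had a limma log2 of 0.14, and 6 of the 9 were higher in LV. With limma, 2 of the 82 regions passed the adjusted threshold, where 0.0284% of all regions passed. Both were higher in LV, at another Tbx5 region (log2 -2.21, adjusted p = 0.0186) and the only Hand1 region (log2 -2.14, adjusted p = 0.0186). Neither passed in the authors' deposited table, and with either RV library left out 0 regions of the whole table passed with limma. LV had the higher value at 56 of 82 (68.3%), with a median log2 of -0.18, against 49.3% and 0.01 over all regions, while the 35 Iroquois regions had 21 higher in LV and a median log2 of -0.066 (-0.25 without LV library B, -0.11 with RV library A or RV library B left out).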

How the data were processed

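Processed files of 7 PRDM16 ChIP and 7 input libraries were used. Per the submitters' processing notes, BWA 0.7.12-r1039, MACS2 2.1.1.20160309, HOMER, DESeq2 and the genome builds mm10 and GRCm38 were involved, in roles that are not stated. Pooling of replicates and filters are likewise not stated. The deposited peak lists hold a score, the fold enrichment (a ratio of ChIP to background) and -log10 q per peak. The deposited table holds a signal per ventricle, log2 values, p-values and adjusted p-values of an unnamed test, with log2FC as RV over LV.

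In that table each ventricle's value was 0.5 plus an average of scaled whole reads, which had 1 solution at 100% of regions (largest residual 7.73e-12, tolerance 1e-07). A read counted as 0.866 and 0.965 normalised reads in RV libraries A and B and as 0.744 and 1.47 in LV libraries A and B. The recovery of reads and the limma fit were tested on simulated data. limma 3.58.1 (R 4.3.3) was fitted with a mean-variance trend, a pseudocount of 1 and no filter on low values, with Benjamini-Hochberg adjustment over all regions. Each replicate was a pool, per the labels. Intervals are exact binomial and cover counting error alone. Other steps ran in Python 3.11.15 with pandas 2.3.3.

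Genes came from a RefSeq table of GRCm38.p6 without strand. Motifs were searched on both strands. Values were given in full for the strongest peak of each gene, for peaks inside or within 1000 bp of it and for the smallest p per direction and cluster, and further regions were named after their values were seen. Members, lists and tests were chosen with earlier results of these data known. Alternatives were peak thresholds, assignment and overlap rules, pseudocounts, a minimum of reads, scaling, limma-voom, no trend and leaving out each library.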

Additional observations from a re-analysis of the deposited data

How the results depend on the processing

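No Iroquois region passed an adjusted p of 0.05 with limma under any alternative run (pseudocounts of 0.1 and 5, a mean of at least 8 reads, TMM scaling, limma-voom, no trend, each library left out), nor in the authors' deposited table, and 4 regions had an unadjusted limma p under 0.05. The adjusted p of the Irx2 region ranged over these from 0.0871 (without LV library A) to 1.0 (authors' deposited table), and its log2 from -1.50 to -1.16 with 1 library left out. Over all regions, 5 passed as tested, against 1 with a pseudocount of 0.1, 14 with 5, 8 with at least 8 mean reads, 17 with limma-voom, 0 without a trend, 90 without LV library A, 22 without LV library B and 0 with RV library A or RV library B left out. No paired analysis was possible because the columns carry no replicate number.

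The Irx1/2/4 cluster held 8 peaks at a fold of at least 5 and 5 within 50000 bp of the gene, and the Irx3/5/6 cluster 3 and 7. Every peak within 500000 bp of the Irx3/5/6 cluster gave 20. At a -log10 q of at least 5 the Irx1/2/4 cluster held 21 peaks and the Irx3/5/6 cluster 9. This setting left out the peaks inside Irx3 (-log10 q 3.36), over its promoter (4.85) and 3785 bp from it (4.68), and the peak beside the lower end of Irx5 (4.53). Overlap with knockout peaks was 0 with 50% of the WT peak required or knockout peaks widened by 1000 bp. At a fold of at least 5, LV was higher at 4 of 8 and 3 of 3 regions, and at 7 of 11 over both clusters. With at least 8 mean reads it was higher at 4 of 6 Irx3/5/6 regions (median log2 -0.14) and 12 of 20 in all. The Irx3/5/6 median was -0.14 in its 500000-bp window and between -0.43 and -0.17 with 1 library left out, the median of Irx1/2/4 regions lay between -0.15 and 0.0, and that of all Iroquois regions between -0.25 and -0.086. The cause was not tested.

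With 1 library left out, the sign of log2 turned at the strongest Irx2 peak (-0.31 to 0.015), the first (-0.028 to 0.47) and second (-0.65 to 0.52; 0.042 in the authors' deposited table) regions inside Irx4, the Irx3 promoter (-0.48 to 1.33), the strongest Irx5 peak (-0.26 to 0.18) and the lower end of Irx5 (-0.32 to 0.94).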

Other observations

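Fto, the gene beside Irx3, was nearest to 7 WT peaks in the window of the Irx3/5/6 cluster. Introns of Fto are known to hold enhancers that act on Irx3 in mouse. The 5 peaks inside Fto, 172106 to 244920 bp from Irx3 with folds of 3.13 to 5.34, had the higher value in RV, with limma log2 of 0.22 to 1.04. The strongest of them, at chr8:91558392-91558858, had 24 and 20 reads in RV libraries A and B, against 15 and 10 in LV libraries A and B (log2 0.61, SE 0.37, limma adjusted p = 0.824). The 2 peaks between Fto and Irx3 had the higher value in LV. At chr8:91681516-91682158, 116794 bp from Irx3, there were 11 and 6 reads in RV, against 45 and 14 in LV, and a log2 of -1.69 (SE 0.399, limma adjusted p = 0.207). At chr8:91715793-91716096, 82565 bp from Irx3, there were 13 and 11 reads in RV, against 18 and 13 in LV (log2 -0.51, SE 0.395). None of the 7 passed the adjusted threshold, the pattern was noticed after the values were seen, and the difference between the groups of peaks was not tested.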
